A study of Mus musculus with 6 samples.

Results

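The islet transcription factors described here are 8 genes of 9 considered, out of 39470 loci counted in mouse pancreatic islets: the basic helix-loop-helix gene Neurod1, the homeobox genes Isl1, Pax6, Nkx2-2 and Mnx1, the forkhead gene Foxa2, the nuclear receptor gene Hnf4a and the zinc finger gene Glis3. They were chosen by name, with earlier results of these data known. They were linked to assembled loci by the lengths of their exons and introns on the same chromosome and strand. Neurod1 and Pdx1 were linked by intron length and neighbouring genes. Pdx1, the remaining gene, was left out of the comparison because 96.8% of the exonic bases of its locus are shared with another locus, above the limit of 90%. Total RNA came from islets of C57BL/6 mice that were 14 weeks old and had been fed a normal or a high fat diet for 8 weeks, with 3 libraries of each diet. The labels do not say whether a library is 1 animal or a pool, so each p-value reflects only how much these libraries vary, and that variation may be technical. The count columns name the high fat diet by an abbreviation that the labels do not spell out, and every direction below rests on reading it as that diet.

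Islet endocrine cells are made and kept by a network of transcription factors that bind each other's genes and the genes of the hormones. Neurod1, Pax6, Isl1, Nkx2-2, Mnx1 and Pdx1 act in endocrine differentiation and again in mature cells, where they help to keep the insulin, glucagon and somatostatin genes on in the right cells. Foxa2 opens chromatin at endocrine and liver genes, Hnf4a is mutated in a form of maturity onset diabetes of the young, and Glis3 acts on the insulin gene and is mutated in a form of neonatal diabetes.

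Of the 8 genes, Isl1 was lower in the high fat diet and the other 7 did not pass the test. The level of Isl1 went from 28.7 ± 2.27 to 18.6 ± 1.46 CPM (reads of the locus scaled to a common library size by the TMM method; mean ± SD, n = 3 in each group), which is 0.650 times the normal diet mean. By the quasi-likelihood test of edgeR, adjusted by Benjamini-Hochberg over 23983 loci with a threshold of 0.05, 1 of the 8 genes was called lower (12.5%) and 0 were called higher. Over all loci tested 4.86% were called lower and 5.95% higher, 10.8% in all (1165 and 1426 loci). On the deposited scaled values limma called 3038 lower and 295 higher. Among loci linked to a protein-coding gene 3.06% were called lower and 8.66% higher. A single call among 8 genes is not set apart from these shares. At an unadjusted p under 0.05 the same test had 1 of the 8 lower and 0 higher, and DESeq2 gave the same counts. These unadjusted counts vary with the setting, with 4 lower under cyclic loess and on the scaled values, 3 lower without normal diet 1, and 1 lower and 1 higher with DESeq2 size factors. At this threshold 7623 of all 23983 loci passed in edgeR, both directions together, and 7195 in DESeq2. The count was 5450 under cyclic loess, 8175 on the scaled values and 7715 with DESeq2 size factors. Without normal diet 1 it was 5500 of 24558.

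The promoter windows of Isl1, Neurod1 and Glis3 are shown because these genes had the smallest adjusted p-values of the 8. Each is the stretch of 250 bases before the RefSeq start in GRCm38.p6, whereas the loci and counts are on mm9. Capitals mark CANNTG, the E-box that basic helix-loop-helix factors such as Neurod1 bind, and TAAT, the core that homeodomains such as those of Isl1 and Pax6 bind. The Isl1 window is chr13:116309689-116309938, that of Neurod1 is chr2:79456637-79456886 and that of Glis3 is chr19:28680078-28680327. All 3 genes are on the minus strand, and the windows are written 5′ to 3′ on it.
Isl1: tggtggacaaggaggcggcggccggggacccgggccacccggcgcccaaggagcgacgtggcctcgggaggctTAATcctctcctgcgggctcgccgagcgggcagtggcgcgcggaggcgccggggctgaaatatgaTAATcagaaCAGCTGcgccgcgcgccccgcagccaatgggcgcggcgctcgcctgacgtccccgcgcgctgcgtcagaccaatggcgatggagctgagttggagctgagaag
Neurod1: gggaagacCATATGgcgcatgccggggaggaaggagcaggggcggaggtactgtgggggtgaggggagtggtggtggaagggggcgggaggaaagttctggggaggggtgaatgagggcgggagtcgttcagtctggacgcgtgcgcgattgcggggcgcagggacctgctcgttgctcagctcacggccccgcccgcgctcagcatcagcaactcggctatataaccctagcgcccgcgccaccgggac
Glis3: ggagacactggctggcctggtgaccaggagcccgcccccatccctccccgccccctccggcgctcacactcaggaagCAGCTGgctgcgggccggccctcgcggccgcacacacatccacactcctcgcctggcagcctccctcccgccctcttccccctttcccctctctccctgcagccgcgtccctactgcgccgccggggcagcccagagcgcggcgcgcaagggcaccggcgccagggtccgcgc

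Both strands were searched, and CAGCTG is a form of CANNTG, so matches of these motifs overlap. The Isl1 window holds 1 CANNTG, which is a CAGCTG, and 2 TAAT. The Glis3 window holds 1 CANNTG, also a CAGCTG, and 0 TAAT. The Neurod1 window holds 1 CANNTG of another form and 0 TAAT. Over 32851 RefSeq windows of this length, 66.2% hold CANNTG, 13% CAGCTG and 54.9% TAAT. The 9 genes, Pdx1 included, have 13 windows because some have several starts, and of these 10 hold CANNTG, 3 CAGCTG and 9 TAAT. The forkhead motifs TGTTTAC and TGTTTGC and the Hnf4a motif CAAAGTCCA were in 0 of the 13 windows, and in 3.17%, 4.30% and 0.384% of all windows. The 3 printed windows are rich in G and C, at 71.2% for Isl1, 67.6% for Neurod1 and 75.6% for Glis3, where the median window has 52.4%.

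The 6 libraries held 104657337 to 135353777 counted reads, with no gap between the diets. Beta cell genes were abundant in both groups, with summed levels of beta cell markers of 58599 to 68900 CPM in the normal diet and 84425 to 103819 CPM in the high fat diet. The largest part of these sums was the amylin gene Iapp, at means of 35728.5 CPM in the normal diet and 58831.3 CPM in the high fat diet. Markers of acinar cells, the enzyme-making cells around the islets, summed to 3685 to 7104 CPM and to 5403 to 11554 CPM. High fat diet 3 stood apart by base composition. Its median log2 level relative to the mean of high fat diet 1 and 2 went from 0.21 in the tenth of linked loci with the lowest GC content to -0.69 in the tenth with the highest. In bulk islets, fewer cells of a type and less RNA per cell cannot be told apart.

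Loci that lie almost wholly under a locus on the other strand had few reads or none. Of 305 linked loci with 99% to 100% of their exonic bases shared in this way, 289 (94.8%) had 0 reads in all 6 libraries. The 242 loci with 90% to 99% shared had a median of 1.19 reads per kilobase, against 122 for the 15705 loci with 0% shared. Partly shared loci did carry reads, with a median of 173 per kilobase at up to 50% shared and 41.0 at 50% to 90%. The stretches that can carry counts therefore differ between the transcription factors. Neurod1, Foxa2, Hnf4a and Glis3 share 0% of their exonic bases, Pax6 shares 40.9%, Isl1 46.0%, Nkx2-2 68.7% and Mnx1 80.6%. All of this sharing is with loci on the opposite strand. Within the exons of UCSC known genes, 3647 of the 3909 bases of Isl1 (93.3%) and all 1456 of Mnx1 are shared.

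**Figure D1:**
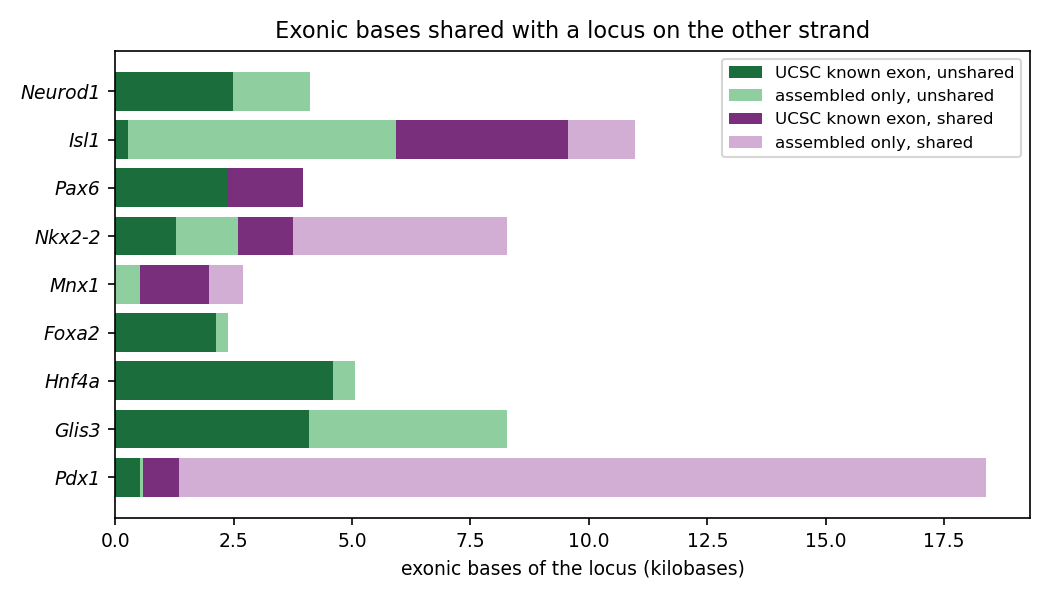
Exonic bases of each locus in kilobases, split by whether they belong to a UCSC known exon or were assembled only, and by whether they are shared with a locus on the other strand. Neurod1, Foxa2, Hnf4a and Glis3 have 0 shared bases, Mnx1 has 0 unshared known bases, and 96.8% of the Pdx1 locus is shared.

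Neurod1, an activator of the insulin gene, was at 130, 163 and 134 CPM in normal diet libraries 1 to 3 and at 125, 109 and 127 CPM in high fat diet libraries 1 to 3. All 3 high fat diet libraries lay below the lowest normal diet library, by a narrow gap. The log2 fold change, high fat minus normal diet, was -0.24 (SE 0.11, 95% interval -0.48 to 0.0061), which did not pass the test (adjusted p = 0.166 in edgeR). Groups without overlap are common in these data, at 39.2% of all loci tested with 20.4% lower and 18.8% higher, and 2 of the 8 genes have them (25%), Isl1 and Neurod1. With GC content centred within each library, an analysis chosen after seeing the data, the Neurod1 value was -0.41 and the adjusted p 0.040 in limma. Over the 14999 linked loci, that centring, also used below, moved the values by a median of -0.10 from those of edgeR. On the deposited scaled values the Neurod1 value was -0.44 with an adjusted p of 0.036 in limma. The median of the scaled values over all loci is -0.27, where the edgeR median is -0.05. The locus is on the minus strand (mm9, chr2:79292229-79297198), and 2494 of its 4114 exonic bases are known exon.

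Isl1, a LIM homeobox factor of the main islet endocrine cell types, was at 31.0, 26.4 and 28.6 CPM in the normal diet and at 18.1, 17.5 and 20.3 CPM in the high fat diet. Every high fat diet library was below every normal diet library, with a gap wider than the range within either group. The log2 fold change was -0.62 (SE 0.11, 95% interval -0.86 to -0.38; adjusted p = 0.0216 in edgeR). The call rests on all libraries but high fat diet 3, without which the value was -0.68 and the adjusted p 0.0028. Without any 1 of the other 5 libraries the values lay between -0.70 and -0.57, and the adjusted p in edgeR was 0.096, 0.078 and 0.083 without normal diet 1, 2 and 3 and 0.060 and 0.076 without high fat diet 1 and 2. In edgeR 0 loci of the whole table passed without any 1 normal diet library or with the mean acinar marker level as a covariate. With that covariate the Isl1 value was -0.57 and the adjusted p 0.109. Centring of GC content gave -0.76 (adjusted p = 0.0099 in limma).

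The Isl1 locus (mm9, chr13:117088478-117105641, minus strand) reaches far past the known gene. It has 5922 unshared bases, and 262 of them (4.42%) belong to a known exon. The other 5660 form a single stretch of an assembled exon, from 86 to 5745 bases upstream of the known start. The lower count is thus a measurement of the assembled locus, whose unshared bases lie mainly upstream of the annotated gene. Whether the known messenger RNA changed was not tested.

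Both tested loci that touch or adjoin Isl1 were lower as well. XLOC_008706, on the opposite strand, begins 85 bases upstream of the known Isl1 start and shares 5053 exonic bases with the gene. It was at 21.2, 18.04 and 16.8 CPM in the normal diet and 11.8, 10.4 and 12.7 CPM in the high fat diet, without overlap (log2 fold change -0.68, SE 0.13, adjusted p = 0.026 in edgeR). The only intron of XLOC_008706 lies between 8083 and 10098 bases downstream of the known Isl1 start. An Isl1 intron lies there too, between 8077 and 10092 bases. Whether reads of XLOC_008706 come from Isl1 RNA was not tested. XLOC_009795, which has no assigned strand, begins 51 bases past the upstream end of the Isl1 locus. It was at 5.35, 3.64 and 4.10 CPM against 2.56, 2.62 and 2.66 CPM, again without overlap (log2 fold change -0.74, SE 0.17, adjusted p = 0.035 in edgeR). Whether reads of the same RNA were counted in the 3 loci was not tested, so they are not taken as independent measurements of a lower level. Both neighbours are linked to no reference gene, a class with 7.30% called lower, 2.22% called higher and a median log2 fold change of -0.32.

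**Figure D2:**
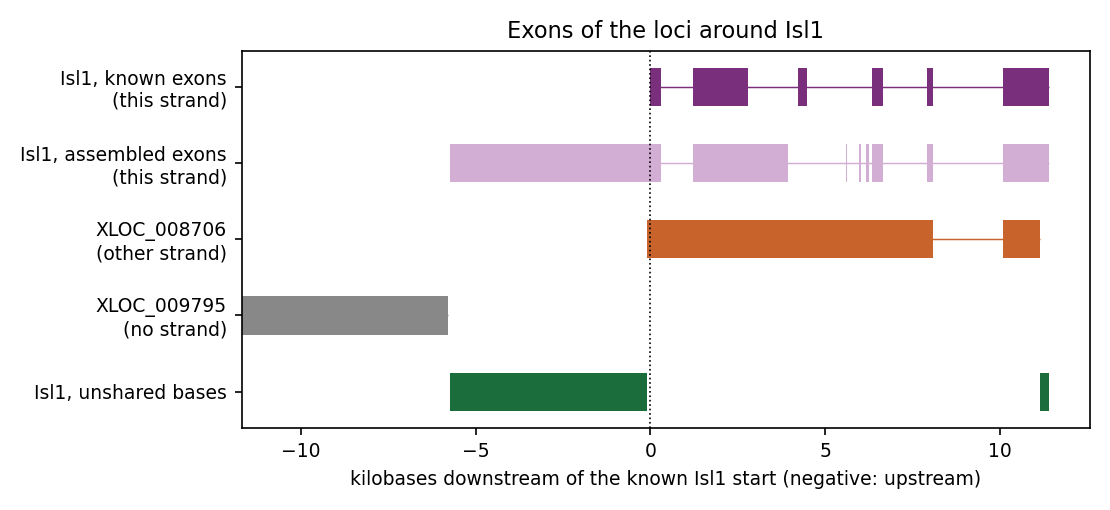
Exons of Isl1 and of the loci beside it, in kilobases from the known Isl1 start, with negative values upstream. Of the 5922 unshared bases of Isl1, 5660 lie upstream of the known start, and the locus on the other strand covers 93.3% of the known exon bases.

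Some markers of alpha and beta cells differed between the diets, and so did some of other cell types. Over all loci tested 4.86% were called lower and 5.95% higher. Among 7 Schwann cell markers 3 fell and 0 rose, and among 6 myeloid markers 1 fell and 0 rose. Stromal markers had 1 lower and 2 higher of 10, and acinar markers 0 lower and 1 higher of 20. Duct and endothelial markers, 7 and 9, had 0 called. Of 8 alpha cell markers tested, 4 fell in the high fat diet, among them Irx1, Irx2 and Slc7a2, and 1 rose (Gc). Their summed level, mostly the glucagon gene Gcg, was 23272 to 25695 CPM in the normal diet and 18745 to 22313 CPM in the high fat diet. Of 5 delta, PP and epsilon cell markers 0 were called in edgeR, all 5 had negative values, and their summed level was 3333 to 4762 CPM against 2695 to 3993 CPM. Of 6 beta cell markers tested besides Pdx1, 2 rose (Iapp and G6pc2) and 0 fell. Ttr, Slc2a2 and Nkx6-1, which define alpha or beta cells, were at 0 in every library, with 100%, 100% and 99.5% of their exonic bases shared. The part of cell composition in the Isl1 value was not tested.

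Pax6, a paired box and homeobox factor needed for hormone gene expression, was at 111, 116 and 116 CPM in the normal diet and 117, 114 and 107 CPM in the high fat diet. The groups overlap, and the coefficient of variation in the normal diet, 2.31%, was the lowest of any of the 8 genes in either group. Its log2 fold change was -0.02 (95% interval -0.19 to 0.15; adjusted p = 0.888 in edgeR). The locus (mm9, chr2:105509053-105537226, plus strand) shares 1460 exonic bases with Elp4, a subunit gene of the Elongator complex, and 163 with XLOC_020506.

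Nkx2-2, a homeobox factor that sets islet cell fates, was at 15.2, 19.0 and 14.8 CPM in the normal diet and 17.7, 16.7 and 19.4 CPM in the high fat diet. The groups overlap, with normal diet 2 and high fat diet 3 the highest libraries. Its log2 fold change was 0.14 (95% interval -0.15 to 0.43; adjusted p = 0.493 in edgeR). Of its 8261 exonic bases 2582 are unshared, the rest lying under the antisense gene Nkx2-2os, and 49.7% of the unshared bases are known exon.

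Mnx1, a homeobox factor that keeps beta cells apart from other endocrine fates, was at 0.992, 0.839 and 0.856 CPM in the normal diet and 0.848, 0.714 and 0.941 CPM in the high fat diet, from 69 to 124 reads. The groups overlap. Its log2 fold change was -0.10 (95% interval -0.53 to 0.33; adjusted p = 0.756 in edgeR), an interval that holds changes of the size seen at Neurod1 in both directions. Of its 523 unshared bases 0 are known exon, so this count is no measure of the annotated transcript.

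Foxa2, a forkhead factor, was at 89.9, 132 and 122 CPM in the normal diet and 110, 101 and 82.6 CPM in the high fat diet. The groups overlap, with normal diet 1 low, and its coefficient of variation there, 19.1%, was the highest of the 8 genes. The log2 fold change was -0.23 (SE 0.15, 95% interval -0.58 to 0.12; adjusted p = 0.334 in edgeR). Its transcripts have a GC content of 57.0%, and high fat diet 3 was at 0.785 times the mean of high fat diet 1 and 2. With GC content centred within each library the value was -0.08 (adjusted p = 0.653 in limma).

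Hnf4a, a nuclear receptor of metabolic genes, was at 31.6, 34.5 and 34.6 CPM in the normal diet and 30.04, 36.0 and 34.4 CPM in the high fat diet. The normal diet range lies inside that of the high fat diet. The log2 fold change was -0.0030 (95% interval -0.23 to 0.22; adjusted p = 0.988 in edgeR). Hnf4a shares 0% of its 5062 exonic bases, and 90.9% of them are known exon, the highest such share among the 4 genes without sharing.

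Glis3, a zinc finger factor, was at 91.4, 105 and 103 CPM in the normal diet and 129, 127 and 99.8 CPM in the high fat diet. High fat diet 1 and 2 were above every normal diet library, and high fat diet 3 was inside the normal diet range, at 0.780 times the mean of the other two. The log2 fold change was 0.25 (SE 0.11, 95% interval -0.01 to 0.51; adjusted p = 0.170 in edgeR). Without high fat diet 3 it was 0.36 and the adjusted p 0.014, so that a call of Glis3 as higher depends on that library. Centring of GC content gave 0.15 (adjusted p = 0.363 in limma). The locus (mm9, chr19:28333275-28754567, minus strand) shares 0% of its exonic bases, and 49.6% of them are known exon.

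Pdx1, a homeobox factor at the head of the beta cell network, is given by its counts alone. Its locus had 2607, 3550 and 3651 reads in the normal diet and 3278, 2472 and 275 reads in the high fat diet. High fat diet 3 was low, at 2.12 CPM where the other 5 libraries lay between 20.9 and 32.4 CPM. Of its 18389 exonic bases 580 are unshared, 517 of them known exon, and the rest lie under the locus of Plut, an antisense non-coding gene. Plut was at 44.7 CPM in high fat diet 3, between 43.3 and 47.9 CPM in the other two, and did not pass the test (log2 fold change -0.16, adjusted p = 0.280 in edgeR).

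**Figure D3:**
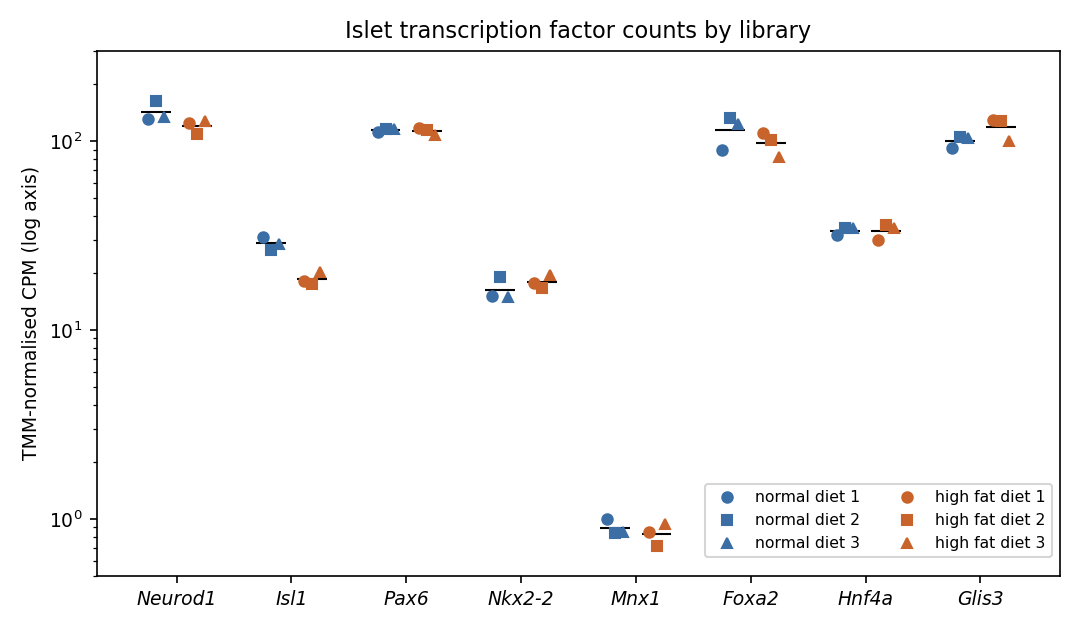
Normalised CPM of the 8 genes in each library on a log axis, normal diet in blue and high fat diet in orange, with the mean of each group as a line. Isl1 lies at 26.4 to 31.0 CPM in the normal diet and 17.5 to 20.3 CPM in the high fat diet, and high fat diet 3 is the lowest high fat diet library for Glis3, Foxa2 and Pax6.

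**Figure D4:**
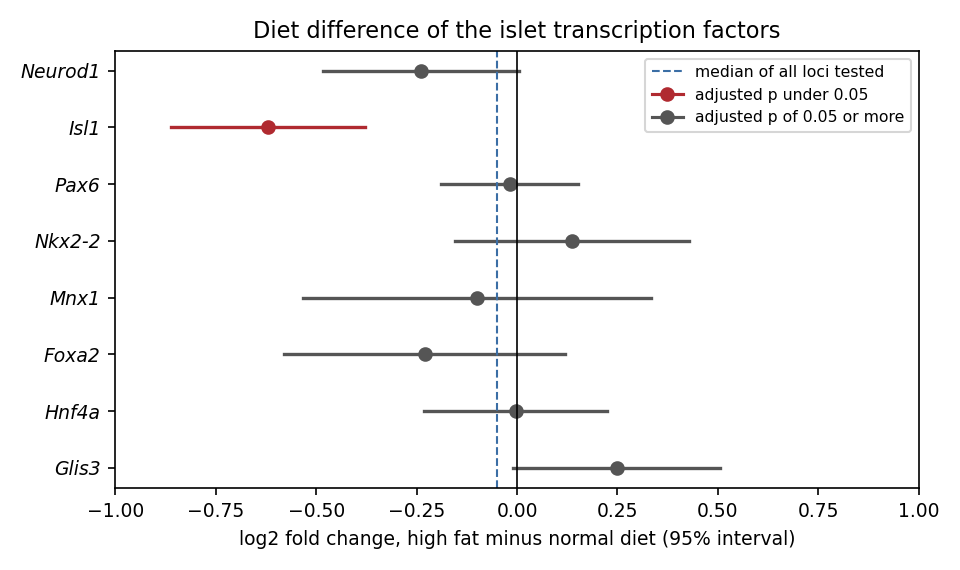
Log2 fold change of each gene, high fat minus normal diet, with its 95% interval, beside the median of all loci tested (-0.05). The Isl1 interval, -0.86 to -0.38, lies below 0, and the other 7 intervals include 0.

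Across the 8 genes 6 fold changes were negative and 2 positive, with a median of -0.06, close to the median of -0.05 over all loci tested and below the 0.06 of loci linked to a protein-coding gene. The 95% intervals of the other 7 genes exclude a change as large as the Isl1 estimate of -0.62, the nearest bound being the -0.58 of Foxa2. A difference between genes was not tested. Per kilobase of unshared exonic bases, Pax6 was the most abundant at a mean of 48.4 CPM over the 6 libraries, followed by Foxa2 at 44.7 and Neurod1 at 31.9. The library ranges of Pax6 and Foxa2 overlap, as do those of Foxa2 and Neurod1. Glis3 followed at 13.2 CPM per kilobase, and then Nkx2-2 at 6.64 and Hnf4a at 6.62, which overlap. Isl1 at 3.99 and Mnx1 at 1.65 CPM per kilobase were lowest, with no overlap with each other or with the gene above. Of the unshared bases, 4.42% are known exon for Isl1 and 0% for Mnx1. Their places are therefore those of the assembled loci and do not rank the annotated transcripts. The order depends on the length used: per kilobase of all exonic bases Foxa2 led at 44.7 CPM, Pax6 was at 28.6, Isl1 at 2.15, Nkx2-2 at 2.08 and Mnx1 at 0.320.

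The locus assembled opposite Isl1, whose reads may not be separate from those of Isl1, and 1 of the loci antisense to Pax6 fell. The other tested loci opposite these genes did not pass. Of 23 loci that overlap one of the genes or lie next to it within 50 kilobases, 15 passed the filter on low counts. Of these, 3 were lower (20%) and 0 higher in edgeR, where 4.86% of all loci tested were lower and 5.95% higher. Both tested Isl1 neighbours are among the 3 and are not taken as independent of Isl1. The third, beside both Isl1 neighbours, was XLOC_020506, a UCSC known transcript antisense to Pax6. It was at 23.7, 18.3 and 20.01 CPM in the normal diet and 15.2, 13.3 and 13.5 CPM in the high fat diet, without overlap (log2 fold change -0.56, SE 0.13, adjusted p = 0.033). None of the 3 was called without any 1 library other than high fat diet 3. Without that library 5 of the 23 were called lower and 0 higher. In that setting 1960 of all 24893 loci tested were lower and 3075 higher. Of the antisense loci that did not pass, Nkx2-2os was at -0.67 (adjusted p = 0.064), XLOC_026116, opposite Mnx1, at -0.31 (adjusted p = 0.153), and Pax6os1 at 0.30 (adjusted p = 0.110). Elp4, which ends inside Pax6, was at 0.05 (adjusted p = 0.745). D930032P07Rik, opposite Glis3, and Hnf4aos were too low to test. XLOC_019476, which lies 10929 bases from Foxa2 and was singled out after its values were seen, was at 15.8, 10.03 and 11.1 CPM against 5.77, 5.14 and 7.396 CPM (log2 fold change -1.01, SE 0.20, adjusted p = 0.027).

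Among 40 other islet transcription factors, 29 could be tested, 6 fell (20.7%) and 1 rose, with a median log2 fold change of -0.16 and negative values for 24. Over all loci tested 4.86% were called lower and 5.95% higher. Among loci linked to a protein-coding gene these shares were 3.06% and 8.66%. The list was written with earlier results of these data known, and whether it differs from these shares was not tested. Irx1 and Irx2, Iroquois factors known from alpha cells, changed by -0.998 (SE 0.17, adjusted p = 0.022 in edgeR) and -0.53 (SE 0.10, adjusted p = 0.027). Irx1 was at 13.5, 18.2 and 16.2 CPM in the normal diet and 9.45, 8.18 and 6.33 CPM in the high fat diet, without overlap. Glis2, a relative of Glis3, fell by 0.46 on the log2 scale (SE 0.11, adjusted p = 0.034). Glis1, another relative, also fell (-0.94, SE 0.25, adjusted p = 0.047), at 0.926 to 1.12 CPM in the normal diet and 0.355 to 0.632 CPM in the high fat diet. Glis1 is outside the naming rule and is named because the count is small. With GC content centred, Glis2 was at -0.25 (adjusted p = 0.345 in limma), Irx2 at -0.39 (0.070) and Glis1 at -0.66 (0.062), none of which passed. Esrrg, an orphan nuclear receptor tied to beta cell maturation, rose by 0.50, with 16.04 to 16.8 CPM in the normal diet and 20.9 to 26.8 CPM in the high fat diet (SE 0.12, adjusted p = 0.036). Irx1 and Irx2 are also on the alpha cell list. The list had 0 genes called without any 1 library other than high fat diet 3. Mafa, Insm1, Etv1, Pou3f4 and Onecut1 were not linked to a locus and are not analysed here.

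Of 34 partners and co-regulators of these factors, 31 could be tested, 2 fell (6.45%) and 1 rose (3.23%), with a median of -0.01. These shares stand beside 4.86% lower and 5.95% higher over all loci tested. Ppargc1a, a coactivator of Hnf4a and of nuclear receptors, was at 3.45, 4.91 and 4.15 CPM in the normal diet and 7.86, 8.49 and 11.1 CPM in the high fat diet. The groups are far apart, and its log2 fold change was 1.14 (SE 0.19, adjusted p = 0.020 in edgeR). Ncoa3, a coactivator, fell by 0.32 (SE 0.08, adjusted p = 0.047). Under 14 alternatives the call was lost in 10 for Ncoa3 and in 6 for Ppargc1a, and both kept their direction.

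Of 39 islet effector genes, the hormones, secretory proteins and enzymes that these factors are known to act on, 34 could be tested, 6 rose (17.6%) and 2 fell, with a median of 0.0069. Scg2, a granin of secretory granules, rose from 10321, 11644 and 10948 CPM to 20326, 20869 and 18937 CPM (0.87, SE 0.08, adjusted p = 0.0090 in edgeR). G6pc2, an islet glucose phosphatase, rose by 0.78 (SE 0.09, adjusted p = 0.011) and Iapp, the amylin gene, by 0.72 (SE 0.09, adjusted p = 0.014). Chgb, Cpe and Pcsk1, a granin and the enzymes that trim prohormones, rose by 0.56, 0.50 and 0.36 (adjusted p = 0.018, 0.022 and 0.026). Neuronatin (Nnat) fell by 0.65 (adjusted p = 0.022). Neuropeptide Y (Npy) changed by -1.81, with 8.80 to 13.2 CPM in the normal diet and 0.936 to 4.66 CPM in the high fat diet (adjusted p = 0.045). Ins1 and Ins2, the insulin genes that Neurod1 and Pdx1 activate, were at 0.32 (adjusted p = 0.116) and 0.16 (adjusted p = 0.612), with 61.6% and 18.4% of their bases shared. Gcg was at -0.29 (adjusted p = 0.080) and Sst, the somatostatin gene, at -0.54 (adjusted p = 0.054). With GC content centred, Iapp (adjusted p = 0.055 in limma), Pcsk1 (0.128), Npy (0.052) and Nnat (0.183) did not pass. That centring moved the values of linked loci by a median of -0.10 from those of edgeR. Under the other scalings the 6 rises were as small as 0.023 for Pcsk1 and 0.43 for Scg2. Without high fat diet 1, 3 effector genes were called higher and 1 lower, and without high fat diet 2 these counts were 2 and 0. Without any 1 normal diet library, or with the acinar covariate, 0 loci of the whole table passed in edgeR, these genes included, with 5153 or more at an unadjusted p under 0.05. The lists were written with earlier results of these data known, and each count stands beside the 4.86% and 5.95% of all loci called lower and higher.

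**Figure D5:**
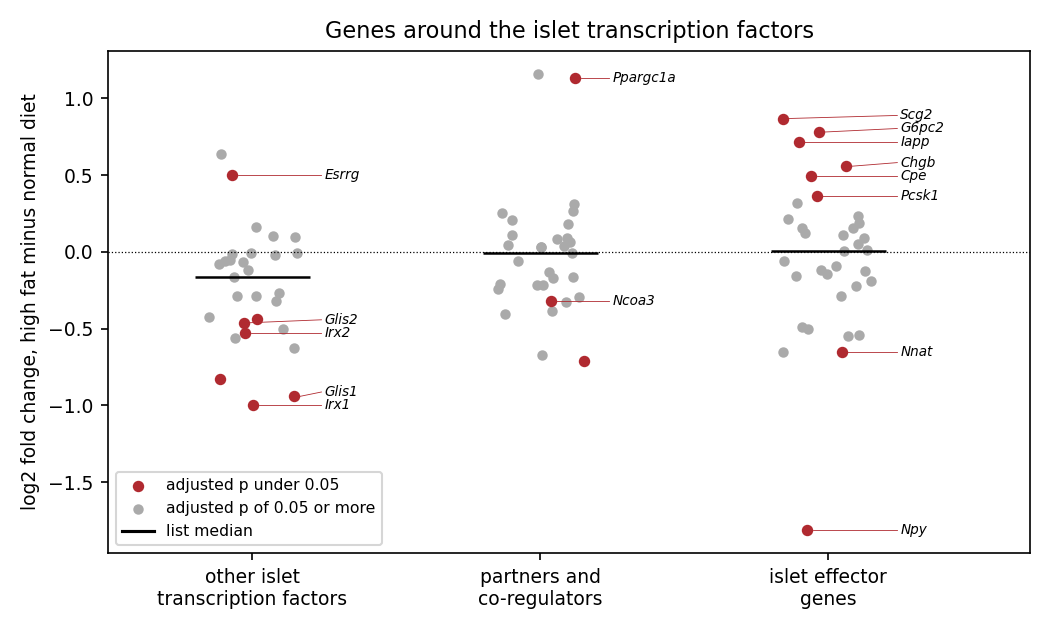
Log2 fold change, high fat minus normal diet, of each tested gene of the 3 lists, with genes called in red, those described in the text named, other genes in grey and the list median as a line. The medians are -0.16 for the other transcription factors, -0.01 for partners and 0.0069 for effector genes, and the 6 effector genes called higher lie between 0.36 and 0.87.

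The profiles of the 8 genes over the 6 libraries differed among themselves. Measured as the root mean square difference of centred log2 CPM, the closest pair was Pax6 and Hnf4a at 0.11 and the farthest was Isl1 and Glis3 at 0.48. Out of 11748 protein-coding loci with a mean of at least 1 CPM, the 2 most like Isl1 were Ypel1 at 0.04 and Rxfp4 at 0.07, where the median locus was at 0.41. The nearest to Neurod1 were Grb10 and Pced1b (0.03 and 0.05), and to Glis3 they were Snd1 and Nabp2 (0.02 and 0.03). Those nearest to Foxa2 were Kcnk12 and Dact3, to Pax6 Rab24 and Kdm5c, to Nkx2-2 Pnrc1 and Zcchc18, to Mnx1 Fmnl2 and Hipk2, and to Hnf4a Syt11 and Nemp1. The distances are a description over 6 libraries that differ in depth and base composition.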

How the data were processed

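RNA of 6 islet libraries was measured by sequencing. Libraries were depleted of ribosomal RNA and made with a stranded kit, without poly(A) selection, per the labels' protocols. The submitters' processing notes name HTSeq 0.5.4p3, TopHat2 2.0.8, edgeR and Cufflinks 2.1.1, and the build mm9. The use of strand in counting is not given in the sources used here. The authors deposited raw counts per locus, a table of scaled values (a signal; each is the count times 1 constant per library, 0.906 to 1.10, and 100% of values gave whole reads within 0.001), and the assembled transcripts (98161). A count test on the recovered reads is the test on the deposited counts, with 1426 loci called higher and 1165 lower.

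Here loci were linked to GENCODE genes by exon and intron lengths (19727 loci). A rule added after seeing the data, an exact intron length or single exon between matching neighbours (5 coding genes on each side, 40 bases at the ends), linked 746 more, Neurod1 and Pdx1 among them. Counts were fitted in R 4.3.3 with edgeR 4.0.16 (TMM, filterByExpr, two-sided quasi-likelihood test with diet as the only term, Benjamini-Hochberg over 23983 loci). SEs and intervals follow from the F statistic. Alternatives used limma 3.58.1 and DESeq2 1.42.0. On simulated counts of 23447 loci, 67 loci were changed at a fold of 1.5, 67 at 2 and 66 at 4. The test found 25.4% of these changes at 1.5, 77.6% at 2 and 100% at 4, and 11 of 146 calls were false. The real table had 2591 calls among 23983 loci, and the p-value that passes the adjustment depends on the number of calls. The shares found therefore describe the simulation only. Power in the real libraries, or for a single gene such as Mnx1, was not tested. Totals were 104657337 to 135353777 reads per library. Precision is lowest for Mnx1, at 69 to 124 reads per library, where counting error is about as large as the spread between libraries.

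Named were the 9 genes, the called genes of each list (at most 6, by adjusted p), every overlapping locus, and the 2 loci most like each gene. Some items that this rule takes are not reported here, though list counts and medians include them. The members and lists were chosen with earlier results of these data known. Promoter sequences are RefSeq's (GRCm38.p6), matched by symbol for all 9 genes.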

Additional observations from a re-analysis of the deposited data

How the results depend on the processing

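Each of the 8 genes was recomputed under 14 alternatives, 13 planned and GC centring chosen after seeing the data. Of 112 values, 91 kept their direction and side of the threshold, 7 lost the call, 3 gained one and 11 changed sign. Isl1 stayed between -0.82 and -0.57, with adjusted p from 0.00017 to 0.109. The sign changes were small values of genes not called. Pax6 was at 0.00013 with DESeq2 size factors, 0.00012 in DESeq2 and -0.057 to 0.023 with 1 library left out, and Nkx2-2 at -0.059 on scaled values. Mnx1 was at 0.13 with cyclic loess, 0.10 with GC centring and -0.19 to 0.0074 with 1 library left out. Hnf4a was at 0.016 with DESeq2 size factors and in DESeq2, 0.015 with GC centring and -0.066 to 0.076 with 1 library left out. Elp4 was at -0.12 with cyclic loess, -0.16 on scaled values, -0.13 with GC centring and -0.044 to 0.13 with 1 library left out.

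Counts called depended more on the setting. For higher and lower loci, 1426 and 1165 in edgeR, cyclic loess gave 248 and 233, DESeq2 2276 and 1838, scaled values 295 and 3038, and GC centring, over the 14999 linked loci alone, 847 and 687. With the acinar covariate 0 and 0 were called in edgeR (5153 at an unadjusted p under 0.05, lowest adjusted p 0.069), and 0 in each list. The 8 genes had 0 lower with the acinar covariate, 2 with scaled values and 2 with GC centring. Neighbours called lower, 3 in edgeR, were 1 with cyclic loess, 7 on scaled values and 1 with GC centring. Other transcription factors called higher numbered 2 in DESeq2 and 0 on scaled values, and lower 10 on scaled values. Partners called higher were 2 with DESeq2 size factors, 3 in DESeq2 and 2 with no filter, and lower 1, 8 and 1 with DESeq2 size factors, scaled values and no filter. Effector genes called higher were 1 with cyclic loess, and lower 4 in DESeq2, 4 with no filter and 6 on scaled values. The causes were not tested.

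Leaving out 1 library gave 0 to 3075 higher and 0 to 1960 lower loci, both highest without high fat diet replicate 3 and 0 without any 1 normal diet library (5500 to 6294 at an unadjusted p under 0.05). The ranges were 0 to 1 for the 8 genes in each direction, 0 to 5 for neighbours lower, 0 to 2 and 0 to 9 for other transcription factors higher and lower, 0 to 4 and 0 to 4 for partners, and 0 to 9 and 0 to 4 for effector genes. Per kilobase of unshared bases the means were 3.99 for Isl1 (2.15 over all bases), 48.4 for Pax6 (28.6), 6.64 for Nkx2-2 (2.08) and 1.65 for Mnx1 (0.320).

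The replicate numbers are only numbers in the labels: deviations of same-numbered libraries correlated at -0.07, 0.07 and -0.01, so no pairing was assumed. With the replicate block 54 loci were higher and 20 lower, 0 of the 8 genes were called (Isl1 -0.62, adjusted p 0.061 in edgeR), and 0 neighbours, other transcription factors and partners; effector genes had 3 higher and 0 lower.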
